A study of Homo sapiens with 44 samples.

Results

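Tumours grown from 2 lines of the human lung adenocarcinoma line A549 were compared for how their RNA changed under SAHA, and the quantity examined was the difference between the 2 changes. It was defined as het1 SAHA minus het1 DMSO, minus the WT SAHA minus WT DMSO change, and it used all 16 treated tumour libraries, of 44 in the series. The 4 groups were het1 tumours given SAHA, het1 tumours given DMSO, WT tumours given SAHA and WT tumours given DMSO, each for 4 weeks and each with 4 libraries. WT is the parental line. The line het1, heterozygous by its name, carries a p300 truncated at the TAZ2 domain. It is present as 1 line, so the truncation cannot be told apart from anything else that sets that line apart. No label names the host strain or says that the libraries of 1 group are different animals, so p-values measure only the spread between these libraries.

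SAHA (vorinostat) inhibits zinc-dependent histone deacetylases, the enzymes that remove acetyl groups from histones and other proteins. The protein p300, encoded by EP300, works on the other side of that balance: it adds acetyl groups, and its TAZ2 domain binds the activation domains of several transcription factors. A549 cells carry an inactivating KEAP1 mutation, and KEAP1 normally marks the transcription factor NRF2 for destruction, so NRF2 target genes run high in this line. DMSO is the solvent in which SAHA is given.

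Library totals ran from 61937591 to 82475298 counts. EP300 stood at 118, 119, 136 and 117 CPM (counts scaled to a library of 1000000, after TMM scaling) in het1 SAHA tumours, against 136, 131, 126 and 118 CPM in het1 DMSO tumours. In WT tumours its levels were 103, 106, 101 and 81.9 CPM under SAHA and 96.1, 109, 88.6 and 102 CPM under DMSO. Its SAHA change did not pass the test in either line, and the difference between the changes was -0.05 ± 0.11 on the log2 scale (edgeR adjusted p = 0.838). CREBBP, the close paralog of EP300, had a difference of 0.00 ± 0.09 (edgeR adjusted p = 0.997). Gene counts do not show where a transcript ends, so they do not check the truncation. A549 markers were abundant in every library, with sums over 10 genes of 12249 to 13575 in het1 SAHA, 15751 to 18814 in het1 DMSO, 18765 to 24122 in WT SAHA and 19065 to 22016 in WT DMSO tumours, all in CPM. Of those genes 8 were tested, and AKR1B10, AKR1C1 and ALDH1A1 had negative differences that passed (37.5%, against 2.71% of all genes).

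Summed markers of cell types that a host could add ran from 0.932 CPM (endothelial, het1 DMSO) to 531 CPM (fibroblast, WT SAHA). Whether their RNA came from host or tumour cells was not tested. They are called host markers here, whatever their source. The summed level of 11 fibroblast markers was 173 to 252 in het1 SAHA, 124 to 143 in het1 DMSO, 186 to 531 in WT SAHA and 254 to 368 in WT DMSO tumours, all in CPM, in which DPT was at 0 throughout and COL1A1 led. That sum was higher in every het1 SAHA library than in every het1 DMSO library, while in WT the groups overlapped. Sums over 8 endothelial markers were 1.23 to 1.69 in het1 SAHA, 0.932 to 1.41 in het1 DMSO, 2.98 to 5.38 in WT SAHA and 3.40 to 3.67 in WT DMSO tumours, all in CPM. Sums over 8 myeloid markers were 19.4 to 24.7 in het1 SAHA, 18.3 to 23.2 in het1 DMSO, 39.3 to 49.9 in WT SAHA and 43.9 to 76.8 in WT DMSO tumours, all in CPM. None of the 7 marker lists of other cell types had a member that passed the test of the difference (edgeR; 5 of 44 at an unadjusted p under 0.05, 2 called by DESeq2 and 1 by limma voom). Over all genes tested 4.72% passed and 19.8% had an unadjusted p under 0.05. With so few markers the absence of a call is not read as equal host content. Fewer cells of a type and less RNA per cell cannot be told apart in bulk tumour libraries. For 7 adipocyte markers the sums were 95.0 to 122 in het1 SAHA, 66.4 to 96.6 in het1 DMSO, 36.1 to 60.2 in WT SAHA and 48.5 to 59.5 in WT DMSO tumours, all in CPM. For 8 keratinocyte markers they were 50.5 to 63.8 in het1 SAHA, 57.6 to 79.0 in het1 DMSO, 178 to 445 in WT SAHA and 244 to 349.9 in WT DMSO tumours, all in CPM. Skeletal muscle markers summed to 8.35 to 19.7 in het1 SAHA, 6.96 to 24.8 in het1 DMSO, 11.9 to 94.7 in WT SAHA and 5.79 to 181 in WT DMSO tumours, all in CPM. Erythroid markers summed to 1.98 to 4.19 in het1 SAHA, 2.59 to 4.89 in het1 DMSO, 1.73 to 4.09 in WT SAHA and 1.30 to 2.37 in WT DMSO tumours, all in CPM. A covariate, called the host marker covariate below, was the mean log2 level of the fibroblast, endothelial and myeloid markers alone. Adipocyte, keratinocyte, skeletal muscle and erythroid markers were not in it. With this covariate 969 genes passed the test of the difference, against 1066 without it. The fibroblast markers in it separated the 2 het1 treatments, so it partly tracks treatment in het1. A call lost or kept with it therefore cannot tell host content apart from the change under SAHA.

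Libraries separated by line first. The first principal component of genes at 5 CPM or more held 86.7% of the variance and split het1 from WT. On the second, with 4.70% of the variance, the 4 het1 SAHA libraries lay between -14.7 and -7.96 and the 4 het1 DMSO libraries between 8.82 and 14.3. WT SAHA libraries were spread widely, at 0.0769 (replicate 3), 11.3 (replicate 4), -15.0 (replicate 6) and -3.77 (replicate 8), whereas WT DMSO libraries lay between -0.330 and 2.24. WT SAHA replicates 4 and 6 also stood at the 2 ends of the third component, at 13.8 and -14.9. Without both of them, an omission chosen after these values were seen, 1085 genes passed the test of the difference, close to the 1066 of the whole set.

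SAHA moved many genes in het1 tumours and called none in WT tumours, and the difference itself passed the test for 1066 of 22586 genes, 4.72% (edgeR quasi-likelihood test, adjusted p under 0.05). The difference was positive for 455 of them, 2.01% of all genes tested, and negative for 611, 2.71%. At an unadjusted p under 0.05 stood 19.8% of all genes. In het1 tumours 1734 genes rose (7.68%) and 2067 fell (9.15%). In WT tumours 0 genes were called by edgeR, with 1911 at an unadjusted p under 0.05 (8.46%), 155 called by DESeq2 and 1 by limma voom. Across the 11727 genes with a mean of at least 5 CPM, the SAHA log2 fold changes had an SD of 0.26 in het1 and 0.13 in WT. The median SD of log2(CPM + 1) was 0.0833 in het1 SAHA, 0.0796 in het1 DMSO, 0.0915 in WT SAHA and 0.0934 in WT DMSO tumours. The 2 sets of changes were weakly related across these genes, with Pearson's r of 0.22 and Spearman's rank correlation of 0.13, as a description, since genes are not independent replicates. Genes that rose in het1 had a median log2 fold change of 0.59 in het1 and 0.03 in WT. Genes that fell had medians of -0.29 in het1 and -0.01 in WT. These genes were picked by their het1 calls, which favours large het1 values, so the het1 and WT medians are not like for like. Of the genes called in het1, 2805 did not pass the test of the difference, which leaves their 2 changes not shown to differ.

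**Figure D1:**
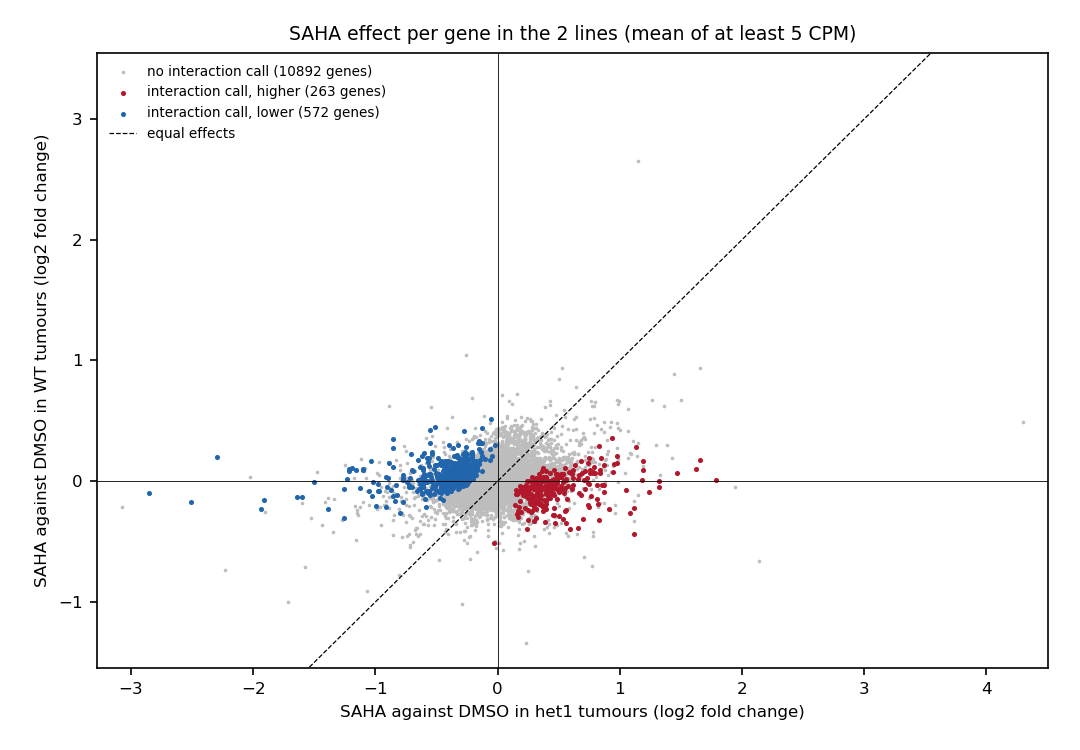
Log2 fold change of SAHA against DMSO in het1 tumours (horizontal axis) and in WT tumours (vertical axis) for the 11727 genes with a mean of at least 5 CPM; each point is a gene, and the dashed line marks equal changes. Coloured points passed the test of the difference, 263 with a positive and 572 with a negative one. Of all 1066 genes called at any level, 998 had the larger SAHA change in het1. The others, SLFN11 and GPRC5B among them, had it in WT.

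Most differences were modest. Their median size was 0.47 on the log2 scale, and 216 of the 1066 reached 1, of which 165 were positive and 51 negative. The count depended on single libraries. It was 542 without het1 SAHA replicate 1, 572 without WT SAHA replicate 3, 605 without het1 DMSO replicate 3, 634 without WT DMSO replicate 7, 690 without het1 SAHA replicate 3 and 700 without het1 DMSO replicate 5. Without WT SAHA replicate 6 it was 1677. For SAHA in WT the count was 170 without WT DMSO replicate 3, 27 without WT SAHA replicate 4, and 1 without WT SAHA replicate 6 or WT DMSO replicate 2. With all 12 other single omissions it stayed at 0, with 1505 to 1957 genes at an unadjusted p under 0.05.

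**Figure D2:**
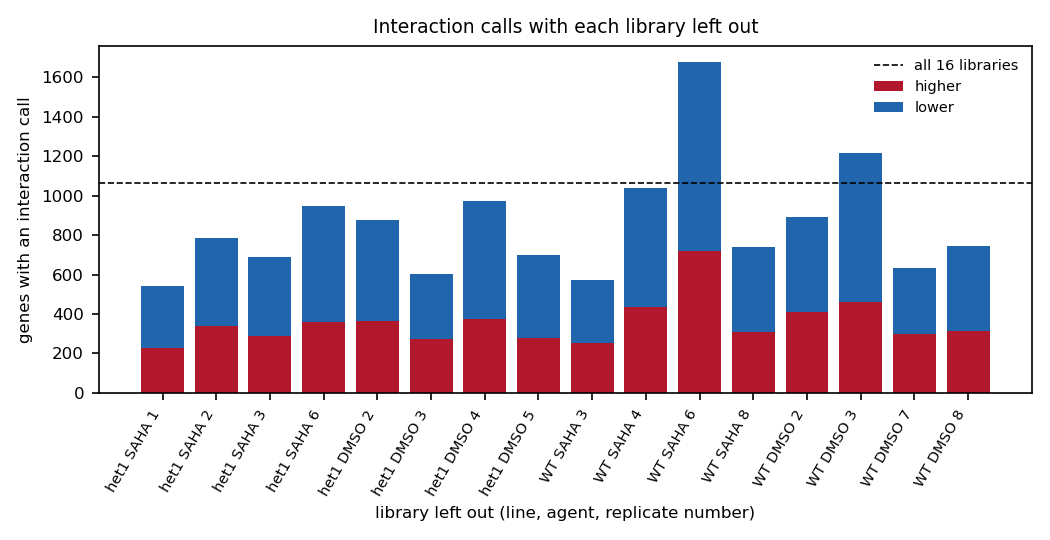
Number of genes that passed the test of the difference with each of the 16 libraries left out, split into positive (red) and negative (blue) differences; the dashed line is the count with all libraries. Bars run from 542 without het1 SAHA replicate 1 to 1677 without WT SAHA replicate 6.

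The greatest negative differences belonged to genes that fell in het1 tumours under SAHA, while their WT libraries overlapped between treatments. They were picked by the size of this difference among genes with a mean of at least 5 CPM over all 16 libraries. OR51E2, at most 2.04 CPM in het1, met that mean only through its WT levels, as did others low in het1. Genes as low in het1 but not high in WT could not be named by this rule. OR51E1 and OR51E2, neighbouring olfactory receptor genes on chromosome 11 (hg38, 4643420 to 4655488 and 4680171 to 4697854) that are also expressed outside the nose, headed the list. OR51E1 stood at 0.879, 1.19, 0.605 and 0.712 CPM in het1 SAHA tumours, against 3.45, 7.34, 4.57 and 9.36 CPM in het1 DMSO tumours. In WT tumours it was far higher, at 187, 273, 75.9 and 149 CPM under SAHA and 165, 233, 209 and 128 CPM under DMSO. The het1 groups did not overlap and the WT groups did, and the difference was -2.75 ± 0.64 (log2 fold change ± SE, edgeR adjusted p = 0.0309). OR51E2 had 0.381, 0.319, 0.161 and 0.411 CPM in het1 SAHA tumours and 1.03, 1.70, 1.39 and 2.04 CPM in het1 DMSO tumours. Its WT levels were 30.8, 39.8, 22.0 and 27.9 CPM under SAHA and 29.2, 32.3, 27.5 and 15.9 CPM under DMSO, with a difference of -2.49 ± 0.45 (edgeR adjusted p = 0.00817). The sign for OR51E1 depended on the scale: in CPM the mean was lower under SAHA by more in WT than in het1, so the difference of mean changes was 7.09 CPM, opposite in sign to the log2 value. The OR51E1 call was lost in 9 of 16 single omissions, whereas the OR51E2 call was kept in each. Both were lost under limma voom, and that of OR51E1 also with the host marker covariate.

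Transporters and surface proteins followed. SLC17A4 and SLC17A3 are neighbouring genes on chromosome 6 (25754699 to 25781191 and 25833066 to 25882286) that encode organic anion and phosphate transporters. SLC17A3 had 1.54, 1.67, 1.06 and 0.696 CPM in het1 SAHA tumours, against 4.31, 4.37, 4.13 and 6.06 CPM in het1 DMSO tumours. WT tumours had 7.29, 8.53, 5.85 and 6.11 CPM under SAHA and 4.67, 6.63, 10.7 and 8.89 CPM under DMSO, which overlap. Differences were -2.33 ± 0.56 for SLC17A4 and -1.76 ± 0.37 for SLC17A3 (edgeR adjusted p = 0.0321 and 0.0164). ANPEP encodes aminopeptidase N, which trims peptides at the cell surface (chromosome 15, 89784889 to 89815401). It stood at 118, 123, 90.0 and 102 CPM in het1 SAHA tumours, against 205, 286, 210.0 and 307 CPM in het1 DMSO tumours. In WT tumours ANPEP had 203, 254, 165 and 172 CPM under SAHA and 130.2, 202, 192 and 224 CPM under DMSO, for a difference of -1.31 ± 0.27 (edgeR adjusted p = 0.0187). ADGRG5, an adhesion G protein-coupled receptor, had 4.25, 4.86, 3.16 and 4.74 CPM in het1 SAHA tumours, against 11.6, 16.6, 10.8 and 14.0 CPM in het1 DMSO tumours. Levels in WT tumours were 11.6, 13.2, 7.81 and 8.28 CPM under SAHA and 8.29, 12.2, 13.1 and 11.1 CPM under DMSO, and the difference was -1.51 ± 0.28 (edgeR adjusted p = 0.00725). ITIH2, a heavy chain of the inter-alpha-trypsin inhibitor of the extracellular matrix, had a difference of -1.49 ± 0.35 from het1 levels of at most 2.78 CPM. The long noncoding RNAs LINC02532 (-1.71) and AL033397.1 (-1.46) also passed on the log2 scale, but their differences of mean changes in CPM were 0.638 and 1.70, opposite in sign. SLC17A4 lost its call in 7 single omissions, AL033397.1 in 5, LINC02532 in 4 and ITIH2 in 3. With the host marker covariate the calls of SLC17A4, ANPEP, ITIH2, LINC02532 and AL033397.1 were lost, and those of SLC17A3 and ADGRG5 were kept.

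AKR1B10, an aldo-keto reductase that reduces retinal and reactive aldehydes, was the most abundant gene of this group (chromosome 7, 134527592 to 134541408). It had 1019.7, 1368, 849 and 1068 CPM in het1 SAHA tumours, against 2085, 2977, 2185 and 2732 CPM in het1 DMSO tumours. In WT tumours the levels were 4339, 5033, 2555 and 4048 CPM under SAHA and 3826, 3943, 3908 and 3222 CPM under DMSO. All het1 SAHA libraries lay below all het1 DMSO libraries, while the WT SAHA libraries lay on both sides of the WT DMSO ones. The difference was -1.31 ± 0.27 (edgeR adjusted p = 0.0154), made of changes of -1.21 in het1 and 0.10 in WT. Its near-copies AKR1B15 (-1.26) and the pseudogene AKR1B10P1 (-1.30) gave like values, and reads may be shared among the 3, so they are not separate evidence. With the host marker covariate the call of AKR1B10 was kept and those of both copies were lost.

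**Figure D3:**
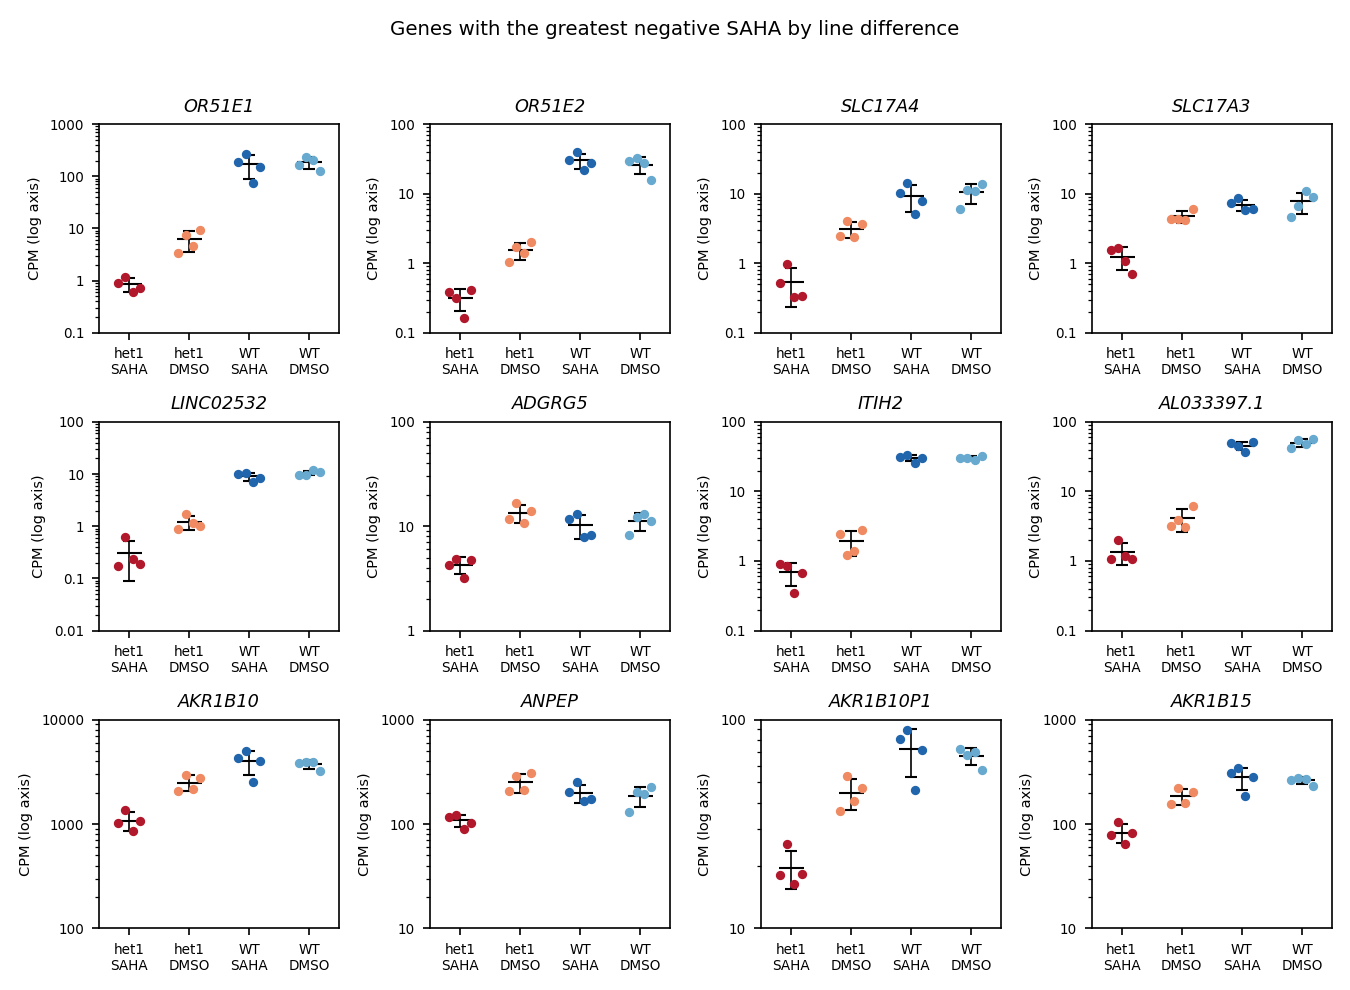
Level in every library (CPM, log axis) of the 12 genes with the greatest negative differences among genes called and at a mean of at least 5 CPM; points are libraries, and bars are the mean ± SD of a group. In each panel the het1 SAHA libraries lie below the het1 DMSO libraries while the WT groups overlap, and 7 of the 12 genes are below 10 CPM in all het1 libraries. The genes were picked by this difference in the same libraries, so the layout follows in part from the choice. How many of all genes tested have it was not counted.

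The greatest positive differences came from genes that rose in het1 tumours under SAHA, and they too were picked by the size of this difference. TNS4 and FAM83A met the mean of 5 CPM through their WT levels, and FYN and DNM3 through their het1 SAHA levels. TNS4, a tensin of focal adhesions (chromosome 17, 40475828 to 40501597), had 6.09, 7.71, 6.38 and 4.92 CPM in het1 SAHA tumours, against 1.92, 1.25, 1.97 and 2.14 CPM in het1 DMSO tumours. WT tumours held it at 203, 149, 254 and 224 CPM under SAHA and 309.8, 202, 146 and 165 CPM under DMSO, with overlap. The difference was 1.78 ± 0.38 (edgeR adjusted p = 0.0208), a call kept in each single omission and lost under limma voom and with the host marker covariate. FYN, a Src family kinase (chromosome 6, 111660332 to 111873452), had 10.7, 10.7, 10.4 and 9.76 CPM in het1 SAHA tumours, against 4.39, 5.09, 4.50 and 5.14 CPM in het1 DMSO tumours. WT libraries stood at 3.01, 2.07, 3.08 and 2.49 CPM under SAHA and 4.52, 3.11, 2.88 and 3.98 CPM under DMSO. FYN rose by 1.12 on the log2 scale in het1, its WT change was -0.44 (unadjusted p = 0.00569, adjusted p = 0.324), and the difference was 1.56 ± 0.20 (edgeR adjusted p = 0.000378).

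DNM3, a dynamin that pinches off membrane vesicles (chromosome 1, 171841498 to 172418466), had 10.5, 10.9, 10.8 and 8.76 CPM in het1 SAHA tumours, against 3.84, 3.75, 2.73 and 2.65 CPM in het1 DMSO tumours. Under SAHA the het1 libraries thus stood above every WT library, at 4.38, 4.08, 5.78 and 4.62 CPM under SAHA and 3.48, 4.804, 3.93 and 4.50 CPM under DMSO, and under DMSO they overlapped the lowest of them. The difference was 1.48 ± 0.20 (edgeR adjusted p = 0.000553). NXN encodes nucleoredoxin, a thioredoxin-like protein (chromosome 17, 799313 to 979770). Its het1 levels were 24.9, 21.2, 24.9 and 23.4 CPM under SAHA and 9.32, 9.41, 9.61 and 9.51 CPM under DMSO, and its WT levels were 3.69, 4.62, 4.77 and 3.46 CPM under SAHA and 3.14, 4.98, 4.63 and 3.74 CPM under DMSO. The NXN difference was 1.31 ± 0.17 (edgeR adjusted p = 0.000452). C11orf86, an open reading frame of unassigned function, and CHST15, a chondroitin sulfate sulfotransferase, had differences of 1.52 ± 0.20 and 1.34 ± 0.25 (edgeR adjusted p = 0.000987 and 0.00817).

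The other 6 genes of this kind were less secure. They were FAM83A (1.40), GFPT2 of the hexosamine pathway (1.36), the cell cycle regulator RGCC (1.34), the membrane-anchored semaphorin SEMA7A (1.33), the noncoding RNA NKILA (1.17) and the guanine nucleotide exchange factor ARHGEF4 (1.15). Their calls were lost in 12, 14, 10, 12, 6 and 2 of 16 single omissions, in that order. With the host marker covariate FAM83A, GFPT2, SEMA7A and ARHGEF4 also lost theirs. FAM83A had 8.74, 4.88, 5.47 and 6.17 CPM in het1 SAHA tumours and 2.45, 1.38, 2.17 and 3.11 CPM in het1 DMSO tumours, far below its WT levels of 79.2, 85.2, 90.4 and 83.4 CPM under SAHA and 116, 76.6, 73.7 and 56.3 CPM under DMSO. Over the 60 genes chosen by the naming rule whose difference passed, 38 kept the call in each single omission.

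**Figure D4:**
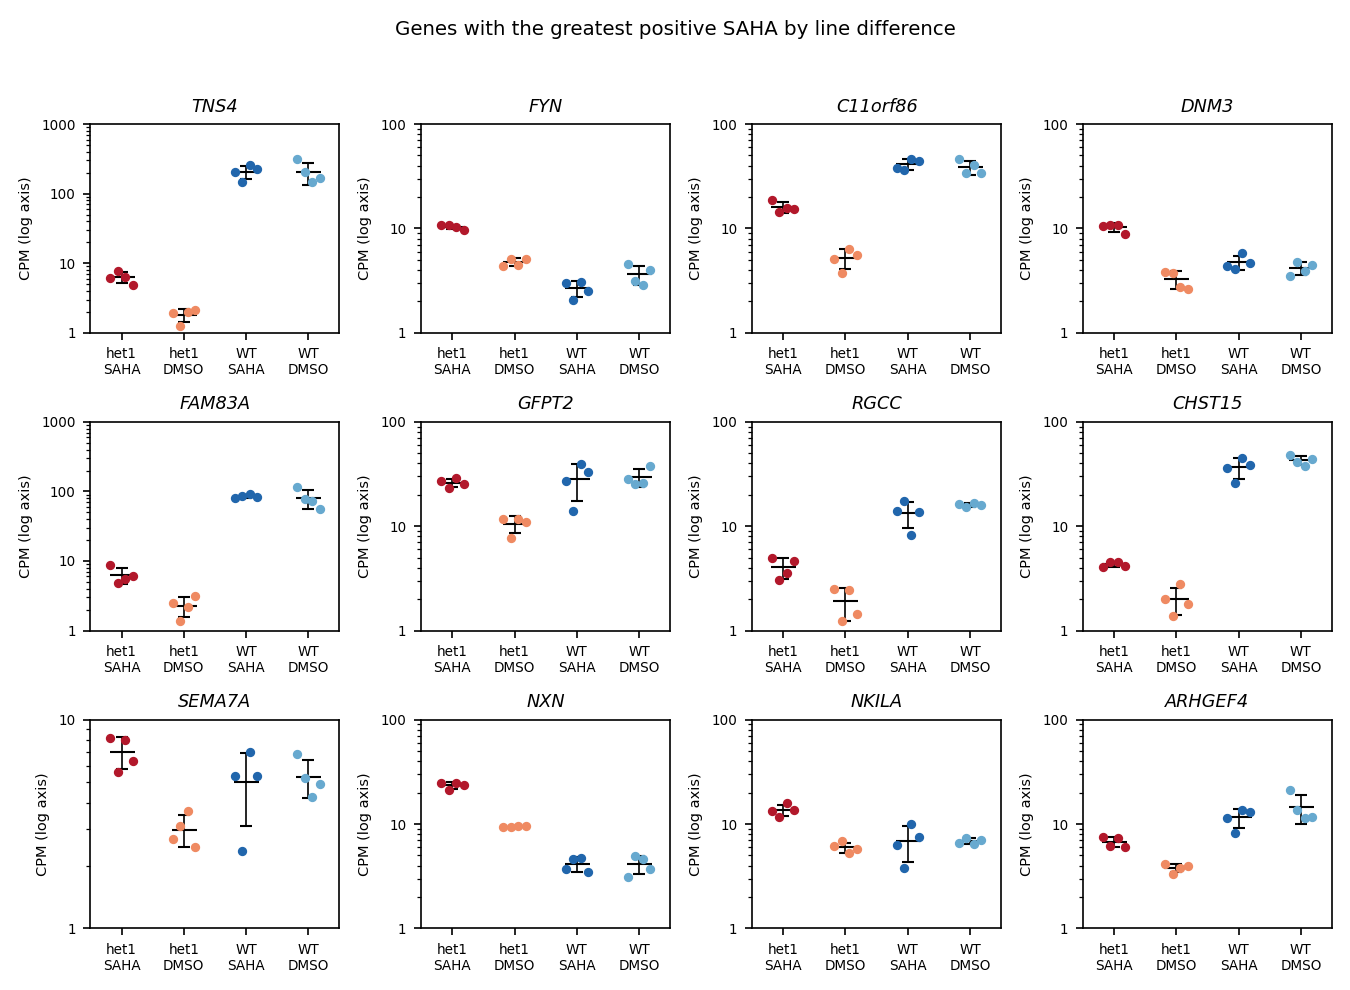
Level in every library (CPM, log axis) of the 12 genes with the greatest positive differences among genes called and at a mean of at least 5 CPM; points are libraries, and bars are the mean ± SD of a group. In each panel the het1 SAHA libraries lie above the het1 DMSO libraries, and the WT groups overlap. Here too the genes were picked by this difference in the same libraries, so the layout follows in part from the choice.

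Of 20 genes known to rise when histone deacetylases are inhibited, 5 had a positive difference that passed (25.0%, against 2.01% of all genes) and 15 were not called, with a median difference of 0.39, against 0.02 over all genes. This list too was chosen with earlier results of these data known, so its shares are descriptions. In het1 8 of the 20 rose, against 7.68% of all genes, with a median change of 0.28. In WT the median was -0.09 and 5 of the 20 log2 fold changes were above 0, against 10722 of 22586 over all genes. H1F0, the replication-independent linker histone and a classical marker of these inhibitors, had 521, 498, 519.6 and 508 CPM in het1 SAHA tumours, against 383, 357, 368 and 331 CPM in het1 DMSO tumours. The WT values were 358, 334, 396 and 394 CPM under SAHA and 409, 381, 388 and 369 CPM under DMSO. H1F0 rose 1.42-fold in het1, its WT groups overlapped, and the difference was 0.57 ± 0.08 (edgeR adjusted p = 0.000987). HSPA2, a testis-enriched member of the heat shock protein family, had 67.4, 61.9, 61.1 and 65.8 CPM in het1 SAHA tumours, against 49.2, 46.5, 43.1 and 46.1 CPM in het1 DMSO tumours. Its WT levels were 167, 148, 185 and 181 CPM under SAHA and 181, 183, 174 and 170.2 CPM under DMSO, with a difference of 0.53 ± 0.09 (edgeR adjusted p = 0.00234). GADD45B, a stress sensor, differed by 0.50 ± 0.11. HIST2H2BE, a polyadenylated H2B gene, differed by 0.48 ± 0.11. CDKN1C, an inhibitor of cyclin-dependent kinases at about 1 to 3 CPM, differed by 1.38 ± 0.30, with changes of 0.48 in het1 and -0.90 in WT that each missed the threshold (edgeR adjusted p = 0.122 and 0.201).

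CDKN1A, which encodes p21 and is the usual readout of these drugs, did not pass. It had 76.6, 64.8, 73.3 and 74.7 CPM in het1 SAHA tumours, against 59.2, 51.5, 49.4 and 51.8 CPM in het1 DMSO tumours. In WT tumours it ran at 45.9, 29.1, 68.0 and 56.8 CPM under SAHA and 52.4, 42.5, 45.4 and 51.6 CPM under DMSO. Its het1 groups did not overlap, yet the het1 change was 0.45 (edgeR adjusted p = 0.121) and the difference 0.39 ± 0.26 (adjusted p = 0.454). WT SAHA libraries lay on both sides of all WT DMSO libraries. DHRS2, another gene these drugs induce, rose in het1 (1.47, edgeR adjusted p = 0.000385) with a difference of 1.06 ± 0.37 (adjusted p = 0.111). Among 15 polyadenylated histone genes, 3 had a positive difference that passed (20.0%, against 2.01% of all genes) and 12 were not called. The third beside H1F0 and HIST2H2BE was H1FX, another linker histone, with 81.3, 77.9, 73.8 and 75.1 CPM in het1 SAHA tumours, against 55.0, 56.7, 61.2 and 52.1 CPM in het1 DMSO tumours. H1FX had 65.6, 64.4, 69.2 and 67.1 CPM in WT SAHA tumours and 70.3, 70.8, 76.6 and 67.4 CPM in WT DMSO tumours, and its difference was 0.55 ± 0.08 (edgeR adjusted p = 0.000628). Of 16 genes known to fall under these inhibitors, HIF1A passed with a negative difference (6.2% of the list, against 2.71% of all genes; -0.32 ± 0.09, edgeR adjusted p = 0.0427) and 15 were not called. TYMS, of thymidylate synthesis, had -0.45 ± 0.13 (adjusted p = 0.06).

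The drug's targets, their partners and the opposing enzymes came next. Over all genes tested 4.72% passed the test of the difference and 19.8% had an unadjusted p under 0.05. None of the 11 zinc-dependent deacetylase genes passed the test of the difference by edgeR (2 at an unadjusted p under 0.05, 2 by DESeq2, 0 by voom). HDAC3, the catalytic subunit of the NCoR and SMRT complexes, had the smallest p of them, with 51.5, 49.9, 44.1 and 47.4 CPM in het1 SAHA tumours, against 40.3, 43.3, 42.7 and 42.9 CPM in het1 DMSO tumours. In WT tumours HDAC3 had 32.6, 34.5, 38.6 and 36.8 CPM under SAHA and 38.0, 36.0, 39.1 and 38.3 CPM under DMSO, and the difference was 0.28 ± 0.08 (edgeR adjusted p = 0.0617). HDAC1 had 0.15 ± 0.07, HDAC2 -0.02 ± 0.08, HDAC6 -0.09 ± 0.08 and HDAC8 0.02 ± 0.12, all log2 differences. Of 13 lysine acetyltransferase genes 2 passed with negative differences (15.4%, against 2.71% of all genes), the nuclear receptor coactivators NCOA3 (-0.32 ± 0.08) and NCOA2 (-0.31 ± 0.08). Of 18 subunits of deacetylase corepressor complexes 3 passed, all negative (16.7%, against 2.71% of all genes): CHD3 of NuRD (-0.42 ± 0.08), the scaffold SIN3A (-0.30 ± 0.08) and MTA2 of NuRD (-0.22 ± 0.05). CHD3 had 234, 249, 269 and 234 CPM in het1 SAHA tumours, against 338, 324, 303 and 327 CPM in het1 DMSO tumours, and its WT levels were 363, 319, 327 and 306 CPM under SAHA and 318, 342, 317 and 315 CPM under DMSO. Calls of NCOA2, SIN3A and MTA2 were lost in 10, 7 and 7 single omissions, and these calls and that of NCOA3 were lost with the host marker covariate.

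Of 14 genes for transcription factors and partners of p300, several of which bind its TAZ2 domain, 13 were tested, 2 passed with negative differences (15.4%, against 2.71% of all genes) and 11 were not called. HIF1A, of the hypoxia response, was among those that passed, at 188, 196, 198 and 199 CPM in het1 SAHA tumours, against 222, 252, 219.9 and 216 CPM in het1 DMSO tumours. Levels in WT tumours were 297, 280.2, 296 and 269 CPM under SAHA and 239, 289, 279 and 262 CPM under DMSO. The het1 groups did not overlap and the WT groups did, and the call was lost in 10 single omissions.

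NRF2 targets had the most calls of any of the 29 gene lists. The lists were chosen with earlier results of these data known, so this rank and the shares below are descriptions. Of 22 genes, 12 had a negative difference that passed (54.5%, against 2.71% of all genes) and 10 were not called, with a median of -0.48. In het1 tumours 16 of the 22 fell, against 9.15% of all genes, with a median change of -0.46, and in WT tumours the median was 0.01. Summed over the list, levels were 14021 to 15967 in het1 SAHA, 20332 to 23919 in het1 DMSO, 17415 to 24059.7 in WT SAHA and 19961 to 23291 in WT DMSO tumours, all in CPM, so the het1 SAHA libraries lay below all others. The count of 12 ran from 10 to 13 over single omissions. It was 1 when a log2 size of at least 1 was also asked, and 0 with replicate numbers as a block in the fit. AKR1C1, AKR1C2 and AKR1C3, which are alike in sequence, are among the 12. The genes called serve glutathione synthesis, NADPH supply, aldo-keto reduction, and export and conjugation.

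For glutathione synthesis, GCLM and GCLC encode the subunits of glutamate-cysteine ligase, the first step, and SLC7A11 imports the cystine it needs. GCLM (chromosome 1, 93885205 to 93909456) had 67.4, 66.7, 82.2 and 81.5 CPM in het1 SAHA tumours, against 124, 132, 116 and 138 CPM in het1 DMSO tumours. In WT tumours it was at 102, 101, 78.1 and 87.5 CPM under SAHA and 82.3, 96.5, 84.7 and 92.4 CPM under DMSO. Under SAHA 2 of the 4 het1 libraries lay below all WT libraries, and under DMSO every het1 library exceeded every WT library. The GCLM difference was -0.82 ± 0.13 (edgeR adjusted p = 0.00186), and that of GCLC was -0.79 ± 0.14 (0.00506). SLC7A11 (chromosome 4, 138164097 to 138242349) had 222, 272, 276 and 251 CPM in het1 SAHA tumours, against 371, 451, 372 and 365 CPM in het1 DMSO tumours. WT libraries stood at 397, 388, 337 and 363 CPM under SAHA and 365, 388, 299 and 321 CPM under DMSO, and its difference was -0.72 ± 0.13 (edgeR adjusted p = 0.0038). NADPH supply was represented by PGD of the pentose phosphate pathway (-0.48 ± 0.11, adjusted p = 0.0165) and malic enzyme ME1 (-0.39 ± 0.11, 0.0439). TKT (-0.12 ± 0.09) and TALDO1 (-0.13 ± 0.10) of the same pathway as PGD did not pass.

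Aldo-keto reductases of the AKR1C cluster on chromosome 10 act on steroids, prostaglandins and aldehydes. AKR1C3 (5035354 to 5107686) had 464, 499, 379.7 and 455 CPM in het1 SAHA tumours, against 776, 909.7, 739.7 and 949 CPM in het1 DMSO tumours. In WT tumours it had 1543, 1477, 1433 and 1609 CPM under SAHA and 1415, 1533, 1741 and 1574 CPM under DMSO, and the difference was -0.86 ± 0.13 (edgeR adjusted p = 0.000901). AKR1C1 differed by -0.97 ± 0.18 and AKR1C2 by -0.88 ± 0.15 (edgeR adjusted p = 0.0059 and 0.0038). These genes are alike in sequence, so reads may be split among them. Over the whole AKR1 family, chosen after its values were seen, 6 of 10 genes had a negative difference that passed, against 2.71% of all genes, among them AKR1C4 (-0.89 ± 0.14), and the 4 not called were AKR1A1, AKR1B1, AKR1E2 and AKR1C8P. Export and conjugation were represented by ABCC2 (-0.74 ± 0.14) and ABCC3 (-0.48 ± 0.12), pumps for glutathione and glucuronide conjugates, and by UGDH (-0.50 ± 0.09), which makes the sugar donor of glucuronidation. NQO1, the usual reporter of NRF2, averaged 911 CPM in het1 SAHA, 1079 CPM in het1 DMSO, 1322 CPM in WT SAHA and 1373 CPM in WT DMSO tumours. It fell in het1 (-0.25, edgeR adjusted p = 0.0382) but its difference did not pass (-0.19 ± 0.11, adjusted p = 0.364). HMOX1 (-0.06 ± 0.24), TXNRD1 (-0.42 ± 0.18), SRXN1 (-0.32 ± 0.16), GPX2 (-0.28 ± 0.11), OSGIN1 (-0.56 ± 0.27) and FTL (-0.22 ± 0.17) were also not called.

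**Figure D5:**
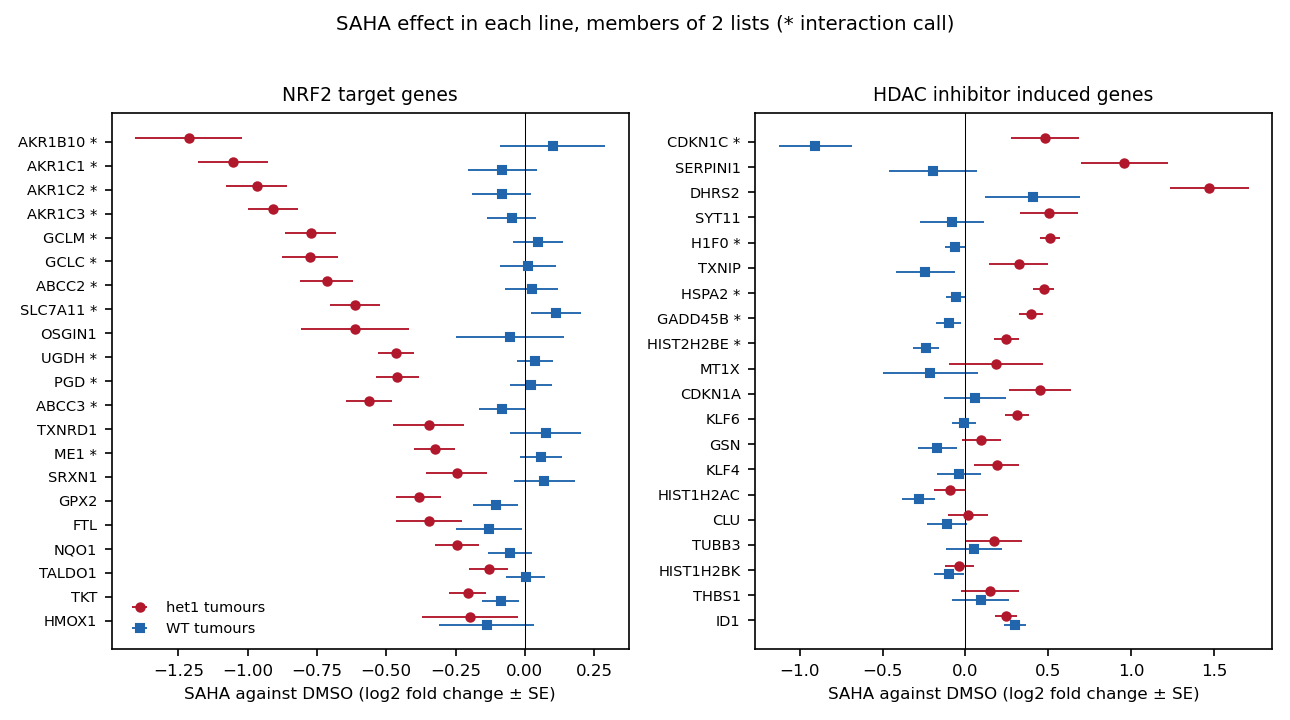
Log2 fold change of SAHA against DMSO (± SE) in het1 tumours (red circles) and WT tumours (blue squares) for 21 of the 22 NRF2 target genes (left) and the 20 genes known to be induced by deacetylase inhibitors (right); asterisks mark genes whose 2 changes differed by the test. All 21 NRF2 targets drawn are below 0 in het1 and scatter around 0 in WT, while 18 of the 20 induced genes are above 0 in het1. Over all genes tested 11873 of 22586 are above 0 in het1.

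NRF2 binds antioxidant response elements, whose core is TGACNNNGC. Both strands were searched for this core, and for no other motif except AP-1 sites overlapping it (TGACTCA on either strand), in the 250 bases before each RefSeq start site (GRCh38.p14). The core occurred in 3830 of 35116 promoters (10.9%). Promoters were found for 17 of the 22 list members, and 5 of them held the core: GCLM, TXNRD1, PGD, ME1 and GPX2. Members are counted by gene, with a match in any of their promoters, whereas the 10.9% is over promoters, so the 2 shares differ in unit. Of the 9 genes with both a promoter and a negative difference that passed, GCLM, PGD and ME1 held it. TXNRD1 and GPX2, which also held it, did not pass. A match is a description and not a bound site. These 3 promoters are shown because the core lies within 250 bases of the start, in genes that fell in het1 and whose difference passed. The core is in capitals, and sequences run 5′ to 3′ on the gene's strand.
GCLM (chr1:93909431-93909680, minus strand): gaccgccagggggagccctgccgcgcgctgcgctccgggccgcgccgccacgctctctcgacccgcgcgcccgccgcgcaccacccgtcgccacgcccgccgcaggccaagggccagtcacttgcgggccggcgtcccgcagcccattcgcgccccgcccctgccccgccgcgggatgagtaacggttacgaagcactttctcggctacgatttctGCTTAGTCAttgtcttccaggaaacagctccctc
PGD (chr1:10398814-10399063, plus strand): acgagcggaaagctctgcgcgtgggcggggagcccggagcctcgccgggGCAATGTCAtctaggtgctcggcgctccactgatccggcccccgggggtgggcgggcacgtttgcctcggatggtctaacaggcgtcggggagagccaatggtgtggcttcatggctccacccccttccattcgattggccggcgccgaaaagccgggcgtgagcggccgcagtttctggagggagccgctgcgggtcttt
ME1 (chr6:83431052-83431301, minus strand): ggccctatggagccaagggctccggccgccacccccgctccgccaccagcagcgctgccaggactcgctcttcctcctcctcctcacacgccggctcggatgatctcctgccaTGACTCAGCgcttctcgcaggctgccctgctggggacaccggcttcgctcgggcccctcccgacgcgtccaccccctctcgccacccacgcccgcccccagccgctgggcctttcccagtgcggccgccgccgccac
The core of GCLM and that of PGD lie on the opposite strand, as GCNNNGTCA, and begin 34 and 201 bases before the start site. The ME1 core begins 137 bases before it and overlaps an AP-1 site, TGACTCA. As given above, the 2 changes differed by -0.82 for GCLM, -0.48 for PGD and -0.39 for ME1.

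Of 18 MYC and ribosome biogenesis genes, 4 had a negative difference that passed (22.2%, against 2.71% of all genes) and 14 were not called. NCL, the nucleolar protein nucleolin, had 554, 542, 561 and 605 CPM in het1 SAHA tumours, against 731, 778, 729 and 713 CPM in het1 DMSO tumours. The WT values were 836, 805, 747 and 780.3 CPM under SAHA and 700.3, 792, 702 and 721 CPM under DMSO, with a difference of -0.50 ± 0.08 (edgeR adjusted p = 0.00163). The others were DKC1, which modifies ribosomal RNA (-0.43 ± 0.08), and the ribosome assembly factors RRP12 (-0.33 ± 0.07) and WDR43 (-0.29 ± 0.08). WDR43 lost its call in 12 single omissions and with the host marker covariate. Among the 11 UTP genes of the small subunit processome, chosen after their values were seen, UTP20 (-0.62 ± 0.10), UTP15 (-0.38 ± 0.10) and UTP18 (-0.32 ± 0.07) passed (27.3%, against 2.71% of all genes).

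The median SAHA change of cell cycle genes was greater in WT than in het1. Of 28, RRM2 and MCM3 passed with negative differences (7.1%, against 2.71% of all genes) and 26 were not called, and the median difference was -0.20. That change was 0.13 in het1 and 0.35 in WT. All 28 log2 fold changes were above 0 in WT, against 10722 of 22586 over all genes, although no gene of any kind was called in WT by edgeR. The list mean of log2(CPM + 1) overlapped between WT treatments, at 5.66 in SAHA replicate 4 and 5.68 in DMSO replicate 3. RRM2, the small subunit of ribonucleotide reductase, had 82.4, 77.7, 78.0 and 98.6 CPM in het1 SAHA tumours and 84.6, 113, 112 and 98.0 CPM in het1 DMSO tumours. In WT tumours RRM2 had 105, 90.6, 91.3 and 96.2 CPM under SAHA, above all of its DMSO values of 67.9, 85.7, 69.4 and 63.8 CPM. Its difference was -0.69 ± 0.15 (edgeR adjusted p = 0.0154). MCM3, a subunit of the replicative helicase, had -0.33 ± 0.09 (edgeR adjusted p = 0.0478), lost in 11 single omissions. The SMC genes, chosen after their values were seen, encode the ring proteins of cohesin, condensin and the SMC5/6 complex. Of 7 of them 4 passed with negative differences (57.1%, against 2.71% of all genes): SMC1A (-0.43 ± 0.09), SMC2 (-0.45 ± 0.11), SMC3 (-0.30 ± 0.07) and SMC5 (-0.36 ± 0.09).

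Among genes with a mean of at least 5 CPM, none of the 6 with the smallest p for SAHA in WT passed over all genes tested. They were SLFN11, GPRC5B, CENPK, FAM133A, POLE and POLQ. POLE, a DNA polymerase subunit, had 52.8 to 58.1 CPM in het1 SAHA tumours and 45.1 to 50.8 CPM in het1 DMSO tumours, and 50.8, 46.8, 52.6 and 45.3 CPM in WT SAHA tumours and 37.3, 43.1, 38.0 and 36.2 CPM in WT DMSO tumours. SAHA and DMSO libraries did not overlap in either line, with changes of 0.21 in het1 and 0.34 in WT and a difference of -0.13 ± 0.09 (edgeR adjusted p = 0.446). SLFN11, which blocks stressed replication forks, differed between lines: it had 113, 106, 110.1 and 121 CPM in het1 SAHA tumours and 129, 115, 126 and 121 CPM in het1 DMSO tumours, which overlap. Its WT levels were lower, at 20.0, 21.9, 17.3 and 17.7 CPM under SAHA and 13.3, 14.0, 14.4 and 14.9 CPM under DMSO, without overlap, and the difference was -0.56 ± 0.10 (edgeR adjusted p = 0.00293; WT change 0.44, adjusted p = 0.0792). GPRC5B, an orphan receptor, was the reverse. It had 8.44, 9.11, 7.90 and 8.65 CPM in het1 SAHA tumours and 9.44, 9.60, 7.57 and 8.18 CPM in het1 DMSO tumours, 26.4, 28.1, 21.9 and 27.7 CPM in WT SAHA tumours and 33.8, 35.6, 38.5 and 40.4 CPM in WT DMSO tumours, and a difference of 0.48 ± 0.13 (edgeR adjusted p = 0.0341) that was lost in 8 single omissions.

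The genes with the smallest p for SAHA in het1 had moderate changes and little spread between libraries. WDR19, a protein of transport along cilia, had 32.0, 32.2, 31.4 and 28.4 CPM in het1 SAHA tumours, against 16.6, 16.5, 17.5 and 17.0 CPM in het1 DMSO tumours. WT tumours had 16.7, 15.8, 17.6 and 15.8 CPM under SAHA and 16.5, 17.7, 17.9 and 18.1 CPM under DMSO, so 3 of the 4 groups overlapped and het1 SAHA stood apart. The difference was 0.96 ± 0.08 (edgeR adjusted p = 8.81e-06). SNX29, a sorting nexin, had the same layout, with 25.5, 23.9, 26.3 and 24.5 CPM in het1 SAHA tumours and 13.0, 15.4, 12.9 and 14.8 CPM in het1 DMSO tumours, and 14.3, 16.8, 15.2 and 14.4 CPM in WT SAHA tumours and 13.9, 15.4, 14.1 and 14.5 CPM in WT DMSO tumours. Its difference was 0.77 ± 0.10 (edgeR adjusted p = 0.000452). CALCOCO1 (0.78 ± 0.08), the actin-binding COTL1 (0.85 ± 0.11) and the sorting receptor SORT1 (0.62 ± 0.08) also had positive differences, and KCTD15 a negative one (-0.80 ± 0.09). All 6 passed by edgeR, with adjusted p from 8.81e-06 (WDR19) to 0.000464 (SORT1).

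Genes of lysosome acidification and autophagy were chosen after their values were seen. Of 22 ATP6V genes, which mostly encode subunits of the vacuolar proton pump, 6 had a positive difference that passed (27.3%, against 2.01% of all genes) and 16 were not called. They were ATP6V1A (0.37 ± 0.06), ATP6V0D1 (0.39 ± 0.09), ATP6V0B (0.42 ± 0.10), ATP6V1E1 (0.33 ± 0.08), ATP6V1D (0.32 ± 0.08) and ATP6V0E1 (0.27 ± 0.07). Of 7 LC3 and GABARAP genes, whose proteins coat autophagosomes, MAP1LC3B (0.40 ± 0.07), MAP1LC3A (0.57 ± 0.13) and GABARAPL2 (0.35 ± 0.07) passed (42.9%). Among 15 HSPA genes HSPA2 and HSPA1L (1.01 ± 0.22) passed (13.3%), and of 6 linker histone genes H1F0 and H1FX did (33.3%).

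Lists of cell state had 1 or 2 calls each, beside shares of 2.01% higher and 2.71% lower over all genes. FN1, the matrix protein fibronectin (chromosome 2, 215360440 to 215436172), had 441, 769, 549.4 and 493 CPM in het1 SAHA tumours, against 1118, 1566, 1143 and 1562 CPM in het1 DMSO tumours. Its WT levels were 2570.3, 2617, 2889 and 1992 CPM under SAHA and 1974, 2640.3, 2717 and 3203 CPM under DMSO. FN1 differed by -1.19 ± 0.27 (edgeR adjusted p = 0.0257), a call lost in 6 single omissions and without WT SAHA replicates 4 and 6, and it fell in het1 while the fibroblast marker sum of the same libraries was higher. With the host marker covariate the FN1 difference still passed. It was the 1 called of 18 mesenchymal genes (5.6%). Of 20 basement membrane and matrix genes FN1 and LAMB1, a laminin chain (-0.44 ± 0.10), passed (10.0%). Of 16 epithelial genes tested, CLDN4 of tight junctions passed upward and CDH1, E-cadherin, downward (6.2% each). CLDN4 had 21.9, 20.1, 18.4 and 19.5 CPM in het1 SAHA tumours, against 10.5, 12.0, 13.3 and 12.1 CPM in het1 DMSO tumours. In WT tumours CLDN4 had 38.2, 30.7, 39.9 and 41.0 CPM under SAHA and 39.9, 35.6, 33.7 and 38.0 CPM under DMSO, and its difference was 0.71 ± 0.12 (edgeR adjusted p = 0.0034). CDH1 differed by -0.44 ± 0.11 (edgeR adjusted p = 0.0338), lost in 9 single omissions and with the host marker covariate. TIMP2, a metalloproteinase inhibitor, was the 1 called of 13 secreted proteases and inhibitors (7.7%; 0.42 ± 0.09, edgeR adjusted p = 0.0159). Of 16 unfolded protein and ATF4 targets SLC7A11 and VLDLR (-0.50 ± 0.12) passed (12.5%).

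Interferon-stimulated genes gave no call of the difference among 20 (edgeR; 2 at an unadjusted p under 0.05, 1 by DESeq2, 0 by voom), and their median SAHA change was -0.44 in het1 and -0.53 in WT. Over all genes tested the difference was called for 4.72%, and 19.8% had an unadjusted p under 0.05. In het1 5 of the 20 fell, against 9.15% of all genes. Libraries of a group differed widely here: IFI27 had 23.8, 59.1, 29.1 and 50.6 CPM in het1 SAHA tumours and 44.0, 39.3, 41.0 and 14.3 CPM in het1 DMSO tumours. WT levels of IFI27 were 2.86, 2.24, 3.23 and 4.47 CPM under SAHA and 12.7, 4.82, 4.63 and 10.4 CPM under DMSO, and its difference was 1.57 ± 0.64 (edgeR adjusted p = 0.189). The 9 MHC class II genes tested of 10 had no call (edgeR; 1 at an unadjusted p under 0.05, 1 by DESeq2, 0 by voom). HLA-DPB1 had 0.577, 0.674, 0.543 and 0.648 CPM in het1 SAHA tumours and 0.167, 0.356, 0.199 and 0.329 CPM in het1 DMSO tumours, and was at 0 in all WT SAHA and in 3 of 4 WT DMSO libraries, so its difference was not read as a value.

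The lists not yet named held few calls. Over all genes tested 2.01% were called higher, 2.71% lower, and 19.8% had an unadjusted p under 0.05. None passed by edgeR among 15 BCL2 family genes (4 at an unadjusted p under 0.05, 1 by DESeq2, 0 by voom), 20 hypoxia and glycolysis genes (3 at an unadjusted p under 0.05, 0 by DESeq2, 0 by voom), 13 genes of MHC class I presentation (3 at an unadjusted p under 0.05, 0 by DESeq2, 0 by voom), 11 neuroendocrine genes (3 at an unadjusted p under 0.05, 0 by DESeq2, 0 by voom), 6 metallothioneins (0 at an unadjusted p under 0.05, 0 by DESeq2, 0 by voom) and 18 oxidative phosphorylation genes (1 at an unadjusted p under 0.05, 0 by DESeq2, 0 by voom). NFKB2 (0.50) was the 1 called of 17 NF-kB targets, HMGCS1 (-0.75) of 16 cholesterol synthesis genes, AJUBA (-0.58) of 12 YAP targets and ALDH1A1 (-0.51) of 10 stem cell associated genes. Of 16 immediate early genes DUSP1, a phosphatase of MAP kinases (0.87), and FOSL1, an AP-1 subunit (-0.83), passed in opposite directions.

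Read from the side of the lines, the same difference is the gap between het1 and WT under SAHA minus the gap under DMSO. Between the lines 13295 genes were called under SAHA (58.9%; 29.9% higher and 29% lower in het1) and 12205 under DMSO (54%; 27.3% higher and 26.8% lower), and the comparisons share no libraries. For TNS4 the log2 gap of het1 from WT was -5.04 under SAHA and -6.82 under DMSO, so it narrowed. For OR51E1 the gap was -7.65 under SAHA and -4.89 under DMSO, so it widened. For DNM3 and GCLM it changed sign, with 1.12 under SAHA and -0.37 under DMSO for DNM3, and -0.31 under SAHA and 0.52 under DMSO for GCLM. For WDR19 the gap was 0.91 under SAHA and -0.05 under DMSO (edgeR adjusted p = 9.87e-11 and 0.455).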

How the data were processed

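Poly(A) RNA of 16 treated A549 tumours was sequenced with a stranded mRNA kit, per the labels' protocols. The deposited table holds raw gene counts made by the authors. Per the submitters' processing notes, bcl2fastq, HISAT2, HTSeq and hg38 were used, with no versions; for the strand setting, annotation release and handling of host reads, nothing is given in the sources used here. Gene IDs were matched to GENCODE 29 for symbols and coordinates. Counts were tested in R 4.3.3 with edgeR 4.0.16 (TMM scaling, filterByExpr, robust quasi-likelihood fit over all 16 libraries with 1 mean per group, Benjamini-Hochberg adjustment over 22586 genes, threshold 0.05) and checked on simulated data. Levels are CPM with TMM-scaled library sizes. DESeq2 1.42.0 and limma voom 3.58.1 were alternatives, as were other scalings and filters and a log2 fold change of at least 1. Further ones were a covariate of fibroblast, endothelial and myeloid markers, a replicate block and the omission of each library.

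The members of each list and the lists themselves were chosen with earlier results of these data known. Genes were named by rule: the 12 greatest positive and 12 greatest negative differences among called genes at a mean of at least 5 CPM, the 6 smallest p-values for SAHA per line, EP300, CREBBP, HDAC1, HDAC2, HDAC3, HDAC6, HDAC8, CDKN1A and H1F0, and the 4 smallest p-values of each of 18 lists. The rule also asked for genes called for SAHA in both lines, of which there were 0 by edgeR, none being called in WT. Further members of a list are named to account for its count, and the families chosen after their values were seen are marked as such. Library totals were 61937591 to 82475298 counts, and no 2 libraries of a group held identical counts. Results of a few genes are not reported here.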

Additional observations from a re-analysis of the deposited data

Results flagged for a closer look

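In 6 of 124 sets of 4 libraries examined, 1 library lay far from the other 3, and chance alone gives this in about 1 in 20. GFPT2 was at 7.67 CPM in het1 DMSO replicate 3, against 11.1 to 11.7 CPM in the others of that group. SLC17A3 was at 6.06 CPM in het1 DMSO replicate 5, against 4.13 to 4.37 CPM. In het1 SAHA replicate 2 both LINC02532, at 0.625 CPM against 0.171 to 0.235 CPM, and AL033397.1, at 2.04 CPM against 1.06 to 1.19 CPM, stood above their group. AKR1B10 was at 3222 CPM in WT DMSO replicate 8, against 3826 to 3943 CPM. The myeloid marker sum was 18.3 CPM in het1 DMSO replicate 2, against 22.7 to 23.2 CPM.

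The SAHA changes of het1 and WT differed by the interaction test for the genes that follow, all named by rule, and their values are het1 minus WT changes on the log2 scale. The greatest positive ones were TNS4 (1.78), FYN (1.56), C11orf86 (1.52), DNM3 (1.48), FAM83A (1.40), GFPT2 (1.36), RGCC (1.34), CHST15 (1.34), SEMA7A (1.33), NXN (1.31), NKILA (1.17) and ARHGEF4 (1.15). The greatest negative ones were OR51E1 (-2.75), OR51E2 (-2.49), SLC17A4 (-2.33), SLC17A3 (-1.76), LINC02532 (-1.71), ADGRG5 (-1.51), ITIH2 (-1.49), AL033397.1 (-1.46), AKR1B10 (-1.31), ANPEP (-1.31), AKR1B10P1 (-1.30) and AKR1B15 (-1.26). Genes with the smallest p in 1 line were WDR19 (0.96), COTL1 (0.85), CALCOCO1 (0.78), SORT1 (0.62), SNX29 (0.77), KCTD15 (-0.80), SLFN11 (-0.56) and GPRC5B (0.48). Histone and inhibitor-responsive genes were H1F0 (0.57), HSPA2 (0.53), H1FX (0.55), GADD45B (0.50), HIST2H2BE (0.48) and HIF1A (-0.32). Genes of the NRF2 list were AKR1C2 (-0.88), AKR1C3 (-0.86), GCLM (-0.82) and SLC7A11 (-0.72). Acetylation and corepressor genes were NCOA3 (-0.32), NCOA2 (-0.31), CHD3 (-0.42), SIN3A (-0.30) and MTA2 (-0.22). Growth genes were RRM2 (-0.69), MCM3 (-0.33), NCL (-0.50), DKC1 (-0.43), RRP12 (-0.33) and WDR43 (-0.29). Cell state genes were FN1 (-1.19), CLDN4 (0.71), CDH1 (-0.44), LAMB1 (-0.44), TIMP2 (0.42) and VLDLR (-0.50).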

How the results depend on the processing

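The count of 1066 genes whose 2 changes differed was 1060 with RLE scaling, 973 with limma voom, 952 with no filter, 1095 above a mean of 1 CPM and 969 with the host marker covariate, but 1792 with DESeq2 and 216 when a log2 size of at least 1 was also asked. At that size the counts were 567 for SAHA in het1, 5225 and 4619 for het1 against WT under SAHA and under DMSO, 1 NRF2 target and 1 inhibitor-induced gene. For SAHA in WT, 0 in the main test became 155 with DESeq2, 1 with limma voom, 36 with no filter, 34 with the host marker covariate and 2 without WT SAHA replicates 4 and 6, an omission chosen after seeing the data. The cause was not tested. Over single omissions the counts ran from 542 to 1677 for the difference, 2731 to 4386 for SAHA in het1, 0 to 170 for SAHA in WT, 12572 to 13628 and 11378 to 12516 between the lines under SAHA and under DMSO, 10 to 13 NRF2 targets and 5 to 6 inhibitor-induced genes. With a replicate block the difference was called for 19 genes, SAHA in het1 for 812, and 0 NRF2 targets and 0 inhibitor-induced genes passed (edgeR; without the block 15 and 10 were at an unadjusted p under 0.05). Residuals of same-numbered libraries had r from -0.22 to 0.33 over 12 pairs, with a median of -0.01, against -0.03 over other pairs. What a shared number stands for is not given and was not tested, and the main test has no term for it. Some numbers occur in a single library, which the block fits fully, so lost power and a real dependence cannot be told apart. On the scale of mean CPM, OR51E1 (7.09), LINC02532 (0.638) and AL033397.1 (1.70) reversed sign; no other gene named by rule whose difference passed did. Of the 60 genes named by rule whose difference passed, 38 kept the call in every single omission, and 34 in every other setting with the block and the fold threshold left aside. Calls ended with no filter for ARHGEF4, FAM83A, FN1, GFPT2, ITIH2, LINC02532, MTA2, NKILA, RGCC, SEMA7A and SLC17A4, and under limma voom for FAM83A, GPRC5B, MCM3, OR51E1, OR51E2, SLC17A4 and TNS4. They ended above a mean of 1 CPM for HIF1A and MCM3, and without WT SAHA replicates 4 and 6 for CDH1, FAM83A, FN1, GPRC5B, HIF1A, ITIH2 and MTA2. Genes below 1 CPM rest on fewer than 100 counts a library.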
